A study of Mus musculus with 6 samples.

Results

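The 9 genes described here encode secreted or shed neurotrophic and growth factors: Hbegf, Areg, Fgf2, Igf1, Pdgfa, Pdgfb, Bdnf, Gdnf and Cntf. They were picked by gene symbol, with earlier results of these data known, and 8 of the 9 had a probe group (transcript cluster) of their own on the array, among 29458 genes tested in all. The cluster of the remaining gene, Cntf, also carries the symbol Zfp91. Ribosome-bound mRNA of CD11brGFP transgenic mice was measured on 6 arrays (Affymetrix MoGene-2_0-st). Of these, 3 held RNA from mice 24 h after tMCAO (transient middle cerebral artery occlusion, a model of stroke with reperfusion), and 3 held RNA from sham-operated mice, called control below. All mice, controls included, carried Flag/EGFP-RPL10a, a tagged ribosomal protein, under the CD11b promoter, which drives expression in microglia and other myeloid cells, and all were 2 to 3 months old. The tagged ribosomes and their mRNA were isolated by TRAP (translating ribosome affinity purification), with 100 ng of RNA per sample. Each group is said to hold 6 mice and 3 biological replicates, but which mice entered which array is not stated, and the animals are described once as males and once as both sexes in equal numbers.

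Growth factors of this kind bind receptors on neighbouring cells, most of them receptor tyrosine kinases, and support the survival, division or repair of neurons, glia and vessels. HB-EGF and amphiregulin are made as membrane-anchored precursors and are released by metalloproteases, whereas FGF2 and CNTF lack a classical signal peptide. In injured brain, microglia and macrophages are known as a source of IGF1, and astrocytes of FGF2 and CNTF.

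Array medians lay between 5.23 and 5.35 on the log2 scale. On the first principal component, with 45.1% of the variance, stroke array 2 and control array 2 had scores of 34.61 and 48.89, and the remaining 4 arrays lay between -26.61 and -14.44. Mean log2 signal of 14 microglia markers was 7.21 to 7.38 in the stroke arrays and 6.84 to 7.20 in the control arrays. Itgam, the gene of CD11b, had 7.01 ± 0.07 in stroke and 6.17 ± 0.40 in control (log2 signal, SD, n = 3 each) and did not pass (adjusted p = 0.276). Markers of other cell types also gave signal: 13 neuron markers averaged 11.03 to 11.18 in stroke and 11.05 to 11.20 in control, and 12 oligodendrocyte lineage markers averaged 9.63 to 9.87 in stroke and 9.56 to 9.70 in control. The values carry no detection calls, so a low signal was not shown to be above background, and no array of unpurified RNA was compared. A level therefore cannot be assigned to the tagged cells alone. More or fewer cells of a type cannot be told apart from more or less RNA per cell.

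Of the 8 ligand genes with a cluster of their own, Hbegf rose 24 h after tMCAO and the other 7 did not pass the threshold, an adjusted p under 0.05 in limma with Benjamini-Hochberg adjustment over all genes. Over all 29458 genes, 0.424% passed, with 0.421% higher and 0.00339% lower. Fgf2 and Igf1, like Hbegf, had 3 stroke values above all 3 control values, so 3 of 8 ligand genes were higher without overlap, against 6.34% of all genes, and 0 of 8 were lower without overlap, against 4.89%. At an unadjusted p under 0.05, 2 of 8 were higher and 0 lower, where 5.76% of all genes passed and 3.69% were higher. The median log2 difference was 0.24 over the 8 genes and -0.01 over all genes.

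**Figure D1:**
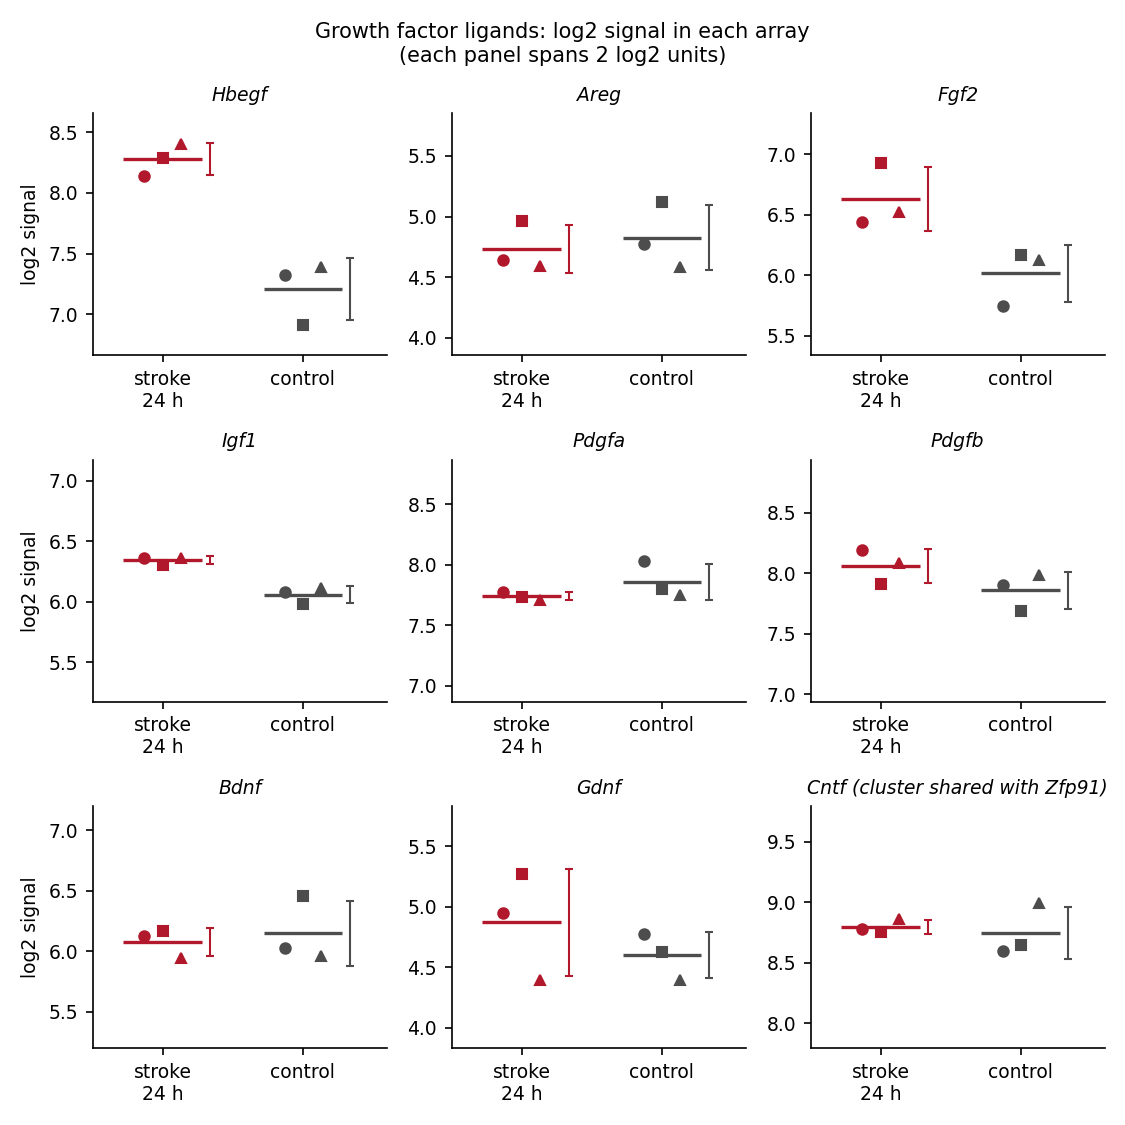
Log2 signal of each of the 9 ligand genes in the 3 stroke arrays (red, left) and the 3 control arrays (grey, right). Circle, square and triangle mark the arrays numbered 1, 2 and 3, the horizontal line is the mean and the bar beside it the SD, and each panel spans 2 log2 units. Hbegf, Fgf2 and Igf1 show no overlap between the groups; the Cntf panel shows the cluster shared with Zfp91.

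Hbegf encodes the heparin-binding EGF-like growth factor, a ligand of the EGF receptor and of ERBB4, and lies on chromosome 18 of GRCm38 (36504927 to 36515805). Its log2 signal was 8.14, 8.29 and 8.41 in the stroke arrays, against 7.32, 6.91 and 7.38 in the control arrays. The lowest stroke value was above the highest control value. The means were 8.28 ± 0.13 in stroke and 7.21 ± 0.26 in control (SD, n = 3 each), a 2.10-fold rise (log2 difference 1.07, SE 0.17, 95% interval 0.69 to 1.46; limma adjusted p = 0.0496). Arrays of the same number differed by 0.82, 1.38 and 1.02 for numbers 1, 2 and 3. The call lay at the edge of the threshold. It was lost when any 1 of the 6 arrays was left out, with adjusted p from 0.0834 without control array 2 to 0.259 without stroke array 3, while the log2 difference stayed between 0.92 and 1.16. Without both arrays numbered 2 the log2 difference was 0.92 (adjusted p = 0.123). In the authors' deposited table the Hbegf fold change is 1.9 with an FDR p of 0.0589, and 0 of the 9 genes have an FDR p under 0.05 there.

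**Figure D2:**
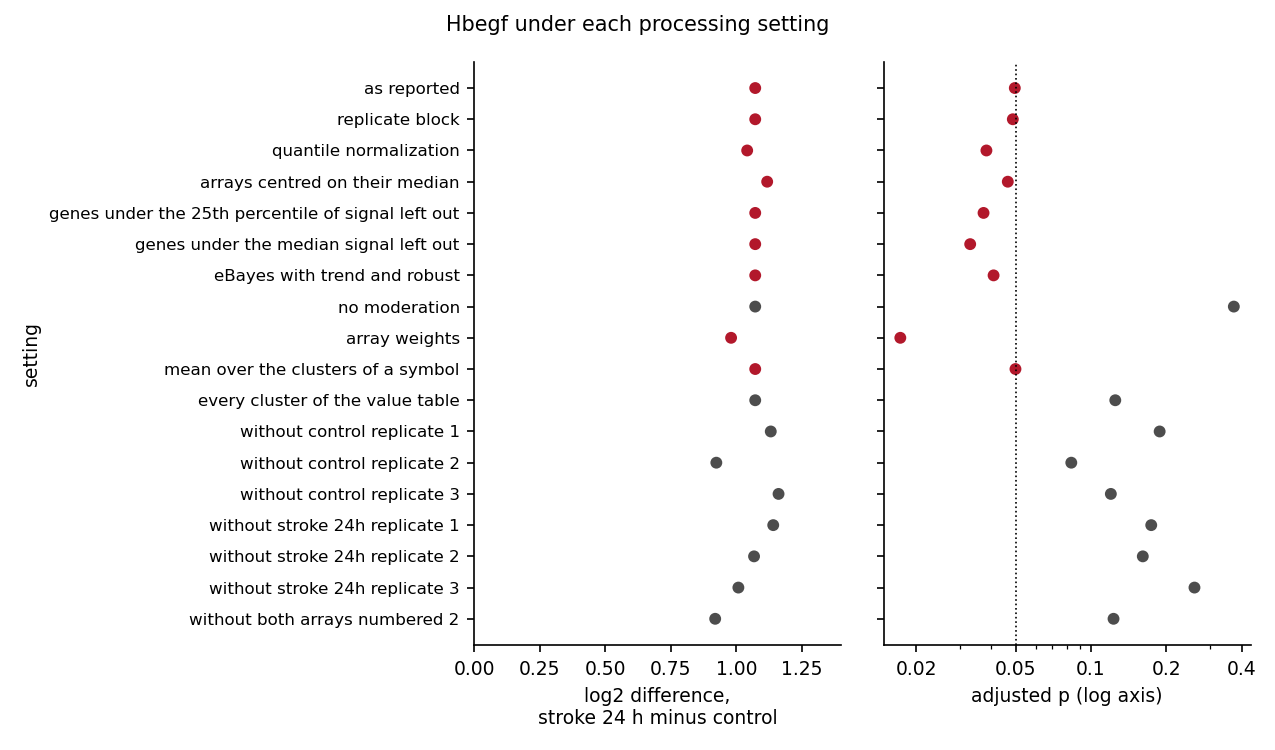
Log2 difference of Hbegf, stroke minus control (left), and its adjusted p on a log axis (right) under each processing setting; red points have an adjusted p under 0.05, the dotted line. The difference lies between 0.92 and 1.16 in every setting shown, and the adjusted p between 0.0173 and 0.372.

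Areg encodes amphiregulin, another ligand of the EGF receptor (chromosome 5, 91139599 to 91148432). Its log2 signal was 4.64, 4.96 and 4.59 in stroke and 4.77, 5.12 and 4.59 in control. The groups overlapped across nearly their whole range, and the difference of -0.09 did not pass (95% interval -0.51 to 0.32; adjusted p = 1). All 6 values lay below the array medians, so a change of Areg may not be visible on this probe group. Whether the difference of Hbegf exceeded that of any other ligand gene is not reported as a test, since the smallest two-sided p of an exact permutation test of 3 arrays against 3 is 0.1.

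Fgf2 encodes basic fibroblast growth factor, which binds FGF receptors together with heparan sulfate (chromosome 3, 37348477 to 37410106). Its log2 signal was 6.44, 6.93 and 6.52 in stroke, against 5.75, 6.17 and 6.13 in control. All stroke values lay above all control values, and in both groups the array numbered 2 was the highest. The means of 6.63 ± 0.26 in stroke and 6.01 ± 0.23 in control gave a log2 difference of 0.61 (95% interval 0.19 to 1.04, 1.53-fold). In limma the unadjusted p was 0.0104 and the adjusted p 0.505. The authors' deposited table holds a smaller difference for Fgf2, with group averages of 6.48 in stroke and 6.15 in control and a fold change of 1.26.

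Igf1 encodes insulin-like growth factor 1 (chromosome 10, 87858265 to 87937047). Its log2 signal was 6.36, 6.30 and 6.36 in stroke, against 6.08, 5.98 and 6.11 in control. The groups did not overlap and the spread within each was small, at an SD of 0.03 in stroke and 0.07 in control. The log2 difference was 0.28 (95% interval -0.00053 to 0.57; 1.22-fold; limma adjusted p = 0.868). With the arrays of equal number taken as pairs, the 3 differences were 0.27, 0.32 and 0.25, and the adjusted p with number as a block was 0.393.

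The platelet-derived growth factors act on mesenchymal and glial progenitor cells: PDGF-A binds PDGFRA, and PDGF-B, which endothelial cells use to recruit pericytes, binds PDGFRA and PDGFRB. Pdgfa (chromosome 5, 138976014 to 139000792) had 7.78, 7.74 and 7.71 in stroke and 8.03, 7.80 and 7.75 in control. Its log2 difference was -0.12 (95% interval -0.43 to 0.19), lower in each same-numbered comparison but with overlapping groups. Pdgfb (chromosome 15, 79995865 to 80024614) had 8.19, 7.91 and 8.09 in stroke and 7.91, 7.69 and 7.98 in control. Its log2 difference was 0.20 (95% interval -0.13 to 0.54), higher in each same-numbered comparison, again with overlap. Neither passed (limma adjusted p = 1 for each). Without control array 1 the difference of Pdgfa was -0.0321, and without control array 2 that of Pdgfb was 0.1178.

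The neurotrophic factors of the list did not pass either. Bdnf, the ligand of the receptor kinase TrkB in neurons (chromosome 2, 109674700 to 109727043), had 6.12, 6.17 and 5.94 in stroke and 6.03, 6.46 and 5.96 in control. Only control array 2 stood out, and the log2 difference of -0.07 (95% interval -0.46 to 0.32) became 0.0818 without that array. In the authors' deposited table the group averages of Bdnf are 6.14 in stroke and 6.0 in control, the opposite order. Its cluster sums transcripts from several promoters, 7 of which are in the RefSeq promoter table, so a shift between them would not be seen. Gdnf, a survival factor of dopaminergic and motor neurons (chromosome 15, 7810048 to 7837580), had 4.95, 5.27 and 4.39 in stroke and 4.78, 4.62 and 4.40 in control. The stroke arrays were the most spread of the 9 genes, at an SD of 0.44, and the log2 difference was 0.27 (95% interval -0.26 to 0.80). It was 0.0721 without stroke array 2 and 0.511 without stroke array 3, and all 6 values lay below the array medians. Cntf encodes ciliary neurotrophic factor and lies next to Zfp91 on chromosome 19 (12763528 to 12765632 and 12766939 to 12796123), and a readthrough transcript spans both genes. Their shared cluster had 8.78, 8.75 and 8.86 in stroke and 8.60, 8.65 and 8.99 in control, a log2 difference of 0.05 (95% interval -0.31 to 0.41; adjusted p = 1 in a limma fit of every cluster). What part of this signal is Cntf cannot be told apart from Zfp91.

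**Figure D3:**
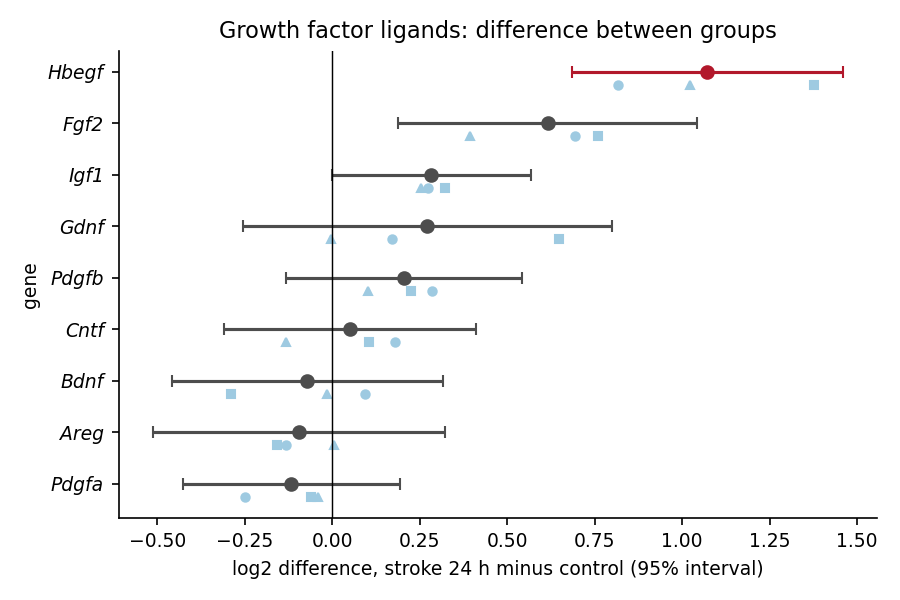
Log2 difference, stroke minus control, for each of the 9 ligand genes with its 95% interval from limma (red, adjusted p under 0.05; grey, not), and below each the difference between arrays of equal number (light blue; circle 1, square 2, triangle 3). The interval of Hbegf (0.69 to 1.46) and that of Fgf2 (0.19 to 1.04) lie above 0, and the others include 0.

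Promoter sequence is shown for Fgf2 and Igf1, the further ligand genes without overlap between groups, for Areg, the EGF family member that did not pass, and for Lif, a related ligand that rose (described below). Fosl1, an AP-1 subunit, was among the genes that rose, so each window was searched on both strands for the AP-1 motif TGANTCA and for the CRE motif TGACGTCA, which do not overlap in these windows. RefSeq promoters on GRCm38.p6 were found for 7 of the 9 genes, in 15 windows, and not for Hbegf and Pdgfb. Among the further ligands that rose, none was found for Clcf1, and Cyr61 was not searched. Lif therefore does not stand for the ligands that rose. For Fgf2 and Igf1 the start used lies inside the gene interval given above. The Fgf2 window therefore lies partly, and the Igf1 window wholly, inside that interval. The 250 bases before the start are given 5′ to 3′ on the gene's strand, in lower case with motif matches in capitals: Fgf2 at chr3:37348403-37348652 (plus strand), Igf1 at chr10:87860861-87861110 (plus), Areg at chr5:91139349-91139598 (plus) and Lif at chr11:4257318-4257567 (plus).
Fgf2: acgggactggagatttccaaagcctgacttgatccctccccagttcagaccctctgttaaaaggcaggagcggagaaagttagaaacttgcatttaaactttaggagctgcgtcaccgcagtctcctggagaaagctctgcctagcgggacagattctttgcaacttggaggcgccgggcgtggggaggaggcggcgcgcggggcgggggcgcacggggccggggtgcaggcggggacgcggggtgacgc
Igf1: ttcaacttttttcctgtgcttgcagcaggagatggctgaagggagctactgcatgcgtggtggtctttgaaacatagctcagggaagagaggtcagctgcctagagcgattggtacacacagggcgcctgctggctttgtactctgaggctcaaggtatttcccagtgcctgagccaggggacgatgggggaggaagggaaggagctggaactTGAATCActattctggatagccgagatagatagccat
Areg: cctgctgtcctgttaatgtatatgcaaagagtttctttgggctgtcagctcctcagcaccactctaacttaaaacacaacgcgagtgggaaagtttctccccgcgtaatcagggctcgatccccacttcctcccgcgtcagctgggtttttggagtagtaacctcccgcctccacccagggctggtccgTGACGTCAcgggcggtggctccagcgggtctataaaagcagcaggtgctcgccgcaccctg
Lif: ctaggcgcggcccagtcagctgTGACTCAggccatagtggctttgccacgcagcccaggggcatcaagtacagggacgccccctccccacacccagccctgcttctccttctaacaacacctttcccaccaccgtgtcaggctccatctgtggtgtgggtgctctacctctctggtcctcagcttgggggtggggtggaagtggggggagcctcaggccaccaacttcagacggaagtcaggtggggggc
The AP-1 letters were found in Igf1, beginning 37 bases before the start, in Lif at 228 bases, in Cntf at 245 bases and in 1 of 7 Bdnf windows. Of all 32851 windows of this length, 6.75% held them. The CRE letters were found in Areg, beginning 61 bases before the start, and 1.55% of all windows held them. Neither motif was found in the windows of Fgf2, Gdnf and Pdgfa. These matches are descriptions of the letters in the windows.

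The other ligands of the same families were counted on lists of family members. Of 57 further ligand genes of 5 family lists, 3 rose, 0 fell and 54 did not pass (limma; 0.421% of all genes rose), with a median log2 difference of -0.03. A pair of them signal, like CNTF, through the LIF receptor or gp130. Lif, the leukemia inhibitory factor, had 6.59, 6.52 and 6.40 in stroke, against 5.72, 5.26 and 5.30 in control, a 2.11-fold rise (log2 difference 1.08, SE 0.16; adjusted p = 0.0436). Clcf1, a cytokine that binds the CNTF receptor, had 7.13, 7.15 and 6.76 in stroke, against 5.99, 5.98 and 5.97 in control, a 2.05-fold rise (log2 difference 1.03, SE 0.15; adjusted p = 0.0372). The third was Cyr61, a matrix-associated protein that binds integrins, at 9.27, 8.65 and 8.84 in stroke and 7.46, 7.20 and 7.31 in control (3.03-fold; adjusted p = 0.0158). In each of the 3 genes the groups were separated by more than the spread within them. Lif and Clcf1 lost the call without any 1 array, with adjusted p up to 0.216 and 0.193, and Cyr61 lost it without control array 1 or 3 or stroke array 1 or 3 (adjusted p up to 0.0812).

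By family, 2 of 13 genes rose on the list of neurotrophins and GDNF and CNTF relatives (median log2 difference 0.04), against 0.421% of all genes. Of 11 EGF family ligands 1 rose, Hbegf itself (median -0.07). Without overlap, 2 of the EGF family ligands were higher and 2 lower, against 6.34% and 4.89% of all genes. Of 22 FGF family ligands 0 passed, with a median of -0.08. At an unadjusted p under 0.05 in limma 1 passed, Fgf2, against 5.76% of all genes. Of these 22 ligands, 1 was higher and 1 lower without overlap. The brightest of them, Fgf12 and Fgf13, which act inside neurons rather than as secreted ligands, differed by -0.24 and -0.33. Of 9 PDGF and VEGF family ligands 0 passed (0 at an unadjusted p under 0.05; median 0.20). Vegfb and Vegfa, which act on endothelial receptors, differed by -0.08 and -0.12. Of 10 insulin-like and other growth factors, 1 rose, namely Cyr61 (median 0.18, lowest -0.38). Without overlap, 5 of them were higher and 1 was lower, against 6.34% and 4.89% of all genes. Csf1 and Grn of this list and Btc of the EGF family list were named after their values were seen, and each was higher in stroke. The genes of these lists that were lower without overlap are not named. Csf1, the macrophage growth factor, was at 8.06 ± 0.05 in stroke and 7.41 ± 0.16 in control (limma adjusted p = 0.177). Grn, which encodes progranulin, was at 9.94 ± 0.29 in stroke and 9.30 ± 0.22 in control (adjusted p = 0.474). Btc, which encodes the EGF receptor ligand betacellulin, was at 6.16 ± 0.24 in stroke and 5.45 ± 0.13 in control (adjusted p = 0.232).

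**Figure D4:**
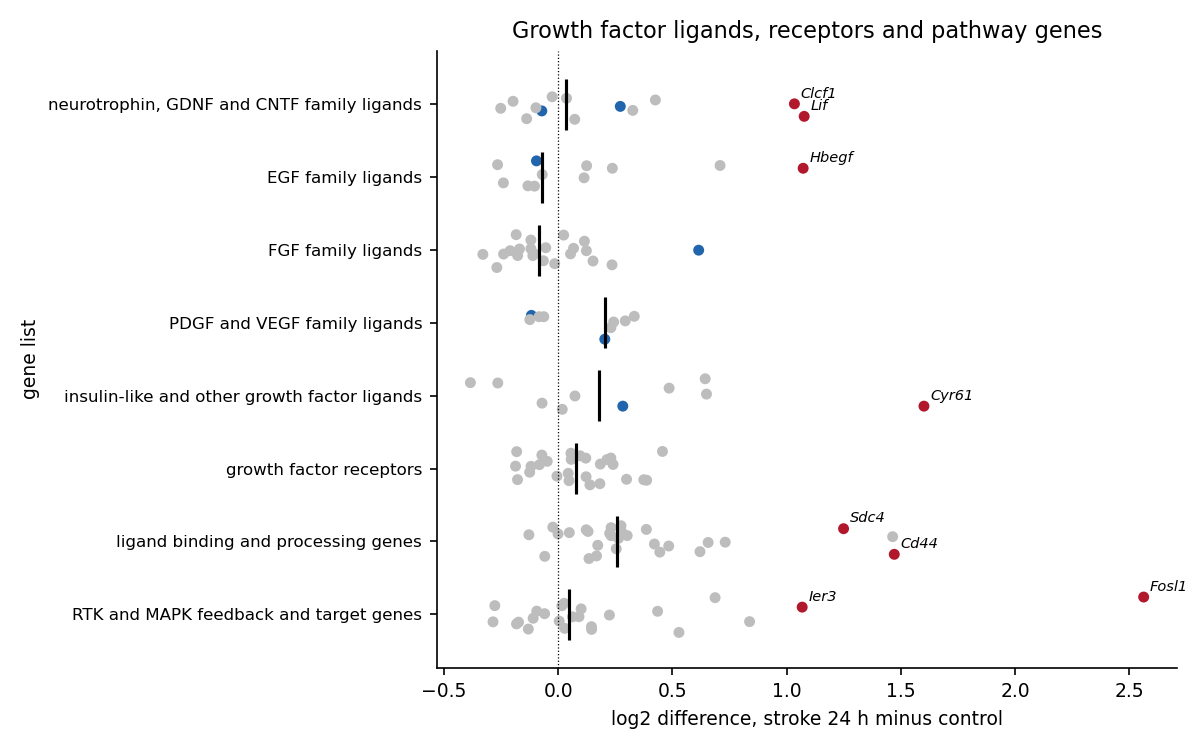
Log2 difference, stroke minus control, of each gene on 8 lists of growth factor ligands, receptors and pathway genes; red points passed the threshold and are named, blue points are those of the 9 ligand genes that did not pass, grey points are other genes, and black bars are list medians. The 8 genes that passed lie at 1.03 or above, and Adam8, at 1.46, is the highest that did not.

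No receptor of these factors passed. Of 26 growth factor receptor genes, 0 rose and 0 fell, with a median log2 difference of 0.08. At an unadjusted p under 0.05 in limma 2 were higher, against 3.69% of all genes. Without overlap, 2 were higher and 1 lower, against 6.34% and 4.89% of all genes. The brightest, Gfra2 and Sort1, which encode a neurturin co-receptor and the sorting receptor sortilin, differed by 0.06 and -0.18. The receptors of each ligand were named for that role, with their values known. For HB-EGF, Egfr was at 7.18 ± 0.07 in stroke and 6.88 ± 0.27 in control, and Erbb4 at 8.78 ± 0.11 in stroke and 8.96 ± 0.19 in control (SD, n = 3 each; limma adjusted p = 0.972 and 1). For FGF2, Fgfr1 differed by 0.18 (95% interval -0.15 to 0.52), and for IGF1, Igf1r by -0.05 (-0.58 to 0.49). Pdgfra and Pdgfrb differed by 0.23 and 0.14, with intervals of -0.46 to 0.92 and -0.45 to 0.73. Ntrk2, which encodes TrkB, differed by -0.12 (-0.40 to 0.16) and was lower in stroke without overlap. Gfra1 and Ret, which together bind GDNF, differed by 0.21 and 0.39, and Gfra1 was higher without overlap. The CNTF and LIF receptor subunits Cntfr, Lifr and Il6st differed by 0.04, 0.18 and 0.37. Among these, Il6st, the gene of the shared subunit gp130, had an interval above 0 (0.08 to 0.67; unadjusted p = 0.0185, adjusted p = 0.635).

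Of 28 genes for ligand binding and processing with a cluster of their own, 2 rose, 0 fell and 26 did not pass (limma). Of all genes 0.421% rose, and the median log2 difference of the list was 0.26. Without overlap, 8 were higher and 0 lower, against 6.34% and 4.89% of all genes. Sdc4, a heparan sulfate proteoglycan of the cell surface that binds FGF2, had 9.43, 9.35 and 9.47 in stroke, against 8.09, 7.96 and 8.45 in control (2.38-fold; adjusted p = 0.0231). Cd44, the hyaluronan receptor, of which some forms carry heparan sulfate, had 6.53, 6.74 and 6.72 in stroke, against 5.42, 5.21 and 4.95 in control (2.77-fold; adjusted p = 0.0127). Sdc4 kept its call only without control array 3 (adjusted p up to 0.142 otherwise), and Cd44 lost it without stroke array 1 or stroke array 3 (adjusted p up to 0.0783). Adam8, a membrane metalloprotease named after its value was seen, was 2.76-fold higher just outside the threshold (adjusted p = 0.0519). Igfbp3, a carrier of IGF1 also named afterwards, was at 7.88 ± 0.07 in stroke and 7.22 ± 0.04 in control (adjusted p = 0.111). Adam17, a protease that sheds HB-EGF, and Cd9, a tetraspanin that associates with the HB-EGF precursor, were likewise named afterwards. Adam17 differed by 0.23 (95% interval -0.17 to 0.62), and Cd9 by 0.73 (0.02 to 1.44, limma adjusted p = 0.851).

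Among 24 feedback and target genes of receptor tyrosine kinase and MAP kinase signalling, 2 rose, 0 fell and 22 did not pass (limma). Of all genes 0.421% rose, and the median log2 difference of the list was 0.05. Without overlap, 6 were higher and 1 lower, against 6.34% and 4.89% of all genes. At an unadjusted p under 0.05 in limma 5 were higher, against 3.69% of all genes. Fosl1, which encodes the AP-1 subunit FRA-1, had 7.94, 8.79 and 8.0 in stroke, against 5.94, 5.50 and 5.60 in control (5.91-fold; adjusted p = 0.00792). Ier3, an early response gene, had 9.25, 8.84 and 8.86 in stroke, against 7.87, 7.85 and 8.02 in control (2.10-fold; adjusted p = 0.0381). Fosl1 kept its call without any 1 of the 6 arrays (adjusted p up to 0.0449), and Ier3 lost it in each case.

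Marker lists named for other cell types were counted in the same limma fit, in which 0.421% of all genes rose. At an unadjusted p under 0.05, 5.76% of all genes passed. Of 13 reactive astrocyte markers 9 rose, among them Cd44, which is also on the binding list above. The mean log2 signal of all 13 was 7.77 to 7.99 in the stroke arrays against 5.95 to 5.99 in the control arrays. Of 12 general astrocyte markers 0 passed (4 at an unadjusted p under 0.05), with means of 9.08 to 9.23 in stroke against 8.76 to 8.94 in control. Of 18 monocyte and neutrophil markers 0 passed (6 at an unadjusted p under 0.05), with means of 4.79 to 5.0 in stroke against 4.55 to 4.60 in control. Whether the signal of these lists came from the tagged cells or from others was not tested. The part of these cell types in the ligand signal was not tested either. Of 12 endothelial and mural markers 0 passed (1 at an unadjusted p under 0.05), with means of 6.27 to 6.86 in stroke and 6.41 to 6.76 in control.

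The 5 genes whose profile over the 6 arrays was nearest to that of Hbegf, by the root mean square difference after each gene was set relative to its control mean, were Serpinh1, Irf9, Tfpi2, Cyp1b1 and Il13ra1. Serpinh1, a chaperone of collagen, was nearest at 0.089 log2 units, and Irf9, a transcription factor of the interferon response, followed at 0.107. Tfpi2, a serine protease inhibitor, Cyp1b1, a cytochrome P450, and Il13ra1, a receptor subunit for interleukins 4 and 13, were at 0.127, 0.13 and 0.135. Serpinh1 and Irf9 did not pass (limma adjusted p = 0.0509 and 0.125), while Tfpi2, Cyp1b1 and Il13ra1 did (0.0364, 0.0269 and 0.0269). The log2 differences of the 5 genes lay between 0.97 and 1.20, beside 1.07 for Hbegf, a closeness that follows from how they were chosen. In all of them control array 2 was the lowest array. This likeness is a description over 6 arrays that share the group difference.

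**Figure D5:**
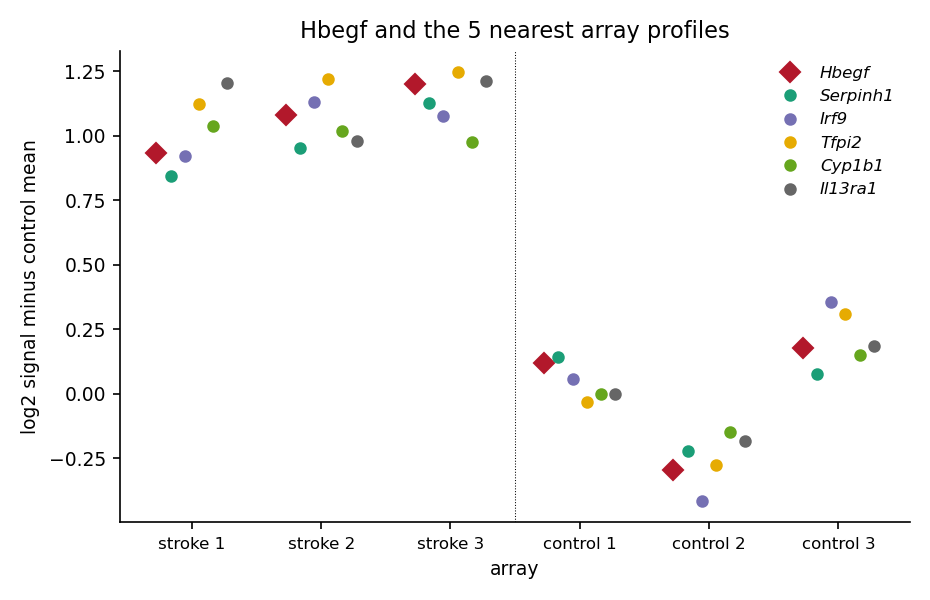
Log2 signal relative to the control mean in each of the 6 arrays for Hbegf (red diamonds) and the 5 genes with the nearest profile (coloured circles, offset sideways). All 6 genes lie above 0.8 in the stroke arrays and below 0.4 in the control arrays.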

How the data were processed

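Log2 signals of 6 arrays, summarised and scaled by the authors, were taken from the deposited value table and were made with Transcriptome Analysis Console 3.0, per the labels. How probes were summarised is not given in the sources used for these analyses. A deposited workbook, with annotation na36 on mm10 per the file headers, supplied the gene symbols. It also holds the authors' group averages in log2 units, their signed fold change, treated as a score, and their p-value with its FDR adjustment. No column of values was left out.

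Clusters with 1 symbol (29971 of 41345; 6873 are not in the workbook) were used, and the brightest was kept for 381 symbols with several, which left 29458 genes. The difference, stroke minus control, was fitted with lmFit and eBayes of limma 3.58.1 under R 4.3.3 (Benjamini-Hochberg adjustment over all genes, threshold 0.05) with no filter on dim genes. Cntf came from a fit of every cluster. On simulated data with 29458 genes, the fit recovered 75% of 100 genes changed by a log2 size of 1 and 100% of 100 changed by 2, with 15 false calls. The simulated noise was independent between arrays, whereas the real arrays shared deviations from their group means. These shares therefore need not hold for the real arrays. Signals are on each probe group's own scale, and the number of arrays limits precision.

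The ligand genes, the gene lists and the naming rule were chosen with earlier results of these data known. The rule names all 9 ligand genes, Itgam and Rpl10a. From each related list it takes up to 5 genes past the threshold, or the 2 brightest where none passed. It also names the 5 profiles nearest to a ligand gene that passed, outside the gene classes left out above. Rpl10a, the gene of the tagged protein, was at 10.42 ± 0.06 in stroke and 10.34 ± 0.15 in control (SD, n = 3 each; limma adjusted p = 1).

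The alternatives tried were a block for replicate number, quantile scaling, median-centred arrays, leaving out genes under the 25th percentile or under the median of signal, eBayes with trend and robust settings, weights per array, no moderation, the mean over a symbol's clusters, every cluster, and fits without single arrays. A fit without stroke array 2 and control array 2 was included because earlier results of these data showed them apart. As a check of pairing, deviations from group means were correlated across genes. Same-numbered arrays gave r = 0.299, 0.576 and 0.39, each above the limit of 0.1, and were treated as pairs in the blocked alternative. Stroke array 1 with control array 3 (0.237) and stroke array 3 with control array 1 (0.128) also lay above this limit. The other combinations lay between -0.46 and -0.308. The limit alone thus does not establish pairs by number, and the labels state no shared litter, day or batch. RefSeq promoter windows (GRCm38.p6) and gene coordinates (GRCm38.p6, the build mm10) came from reference tables.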

Additional observations from a re-analysis of the deposited data

How the results depend on the processing

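Hbegf kept its direction under all 17 alternatives run (log2 difference 0.92 to 1.16) and its call under 8 of them, the replicate block (adjusted p = 0.0487) among them; the other 9 ended the call, and Lif, Clcf1 and Ier3 likewise kept theirs under 8 of 17. The replicate block ended no call of a gene named here. Of the 8 ligand genes with their own cluster, 1 passed as reported and 0 passed without moderation (3 at an unadjusted p under 0.05), in the fit of every cluster, without both arrays numbered 2, and in each fit that left out 1 array (0 to 0). Over all genes, 125 passed as reported, 217 with array weights, 36 in the fit of every cluster (which tests more features, 41345), 70 without both arrays numbered 2, 25 to 74 without 1 array, and 0 without moderation (1841 at an unadjusted p under 0.05). The causes were not tested. Related list counts that moved by over 1.5 times were these. Without moderation, each list with calls had 0. In the fit of every cluster, the neurotrophin, EGF and insulin-like lists had 0, and the binding and feedback lists 1. Without both arrays numbered 2, the neurotrophin, EGF and binding lists had 0 and the feedback list 1. The binding list had 4 calls with the median filter and 4 with array weights. Leaving out 1 array gave 0 to 0 calls on the neurotrophin and EGF lists, 0 to 1 on the insulin-like list, 0 to 2 on the binding list and 1 to 1 on the feedback list. Among uncalled genes, leaving out 1 array turned the sign of Bdnf (-0.166 to 0.0818), Areg (-0.2147 to 0.0519), Cntf (-0.0242 to 0.173), Vegfb (-0.2375 to 0.0854), Vegfa (-0.475 to 0.215), Gfra2 (-0.1385 to 0.2417), Rpl10a (-0.001 to 0.1463), Igf1r (-0.2317 to 0.1436), Pdgfra (-0.0734 to 0.5631), Pdgfrb (-0.1451 to 0.3671) and Cntfr (-0.0349 to 0.1356). Without both arrays numbered 2, Bdnf was at 0.0381, Vegfb at 0.0002, Gfra2 at -0.0568 and Pdgfrb at -0.0303; with array weights, Gfra2 was at -0.0542 and Igf1r at 0.0034. The median filter left no value for Gdnf, Areg, Tfpi2 and Cyp1b1, and the Cntf cluster was not run under the 2 alternatives that concern symbols.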
